A study of Oryza sativa Japonica Group and Oryza sativa with 4 samples.

Results

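Aquaporins are membrane channel proteins, and the rice aquaporin genes were taken as all genes with a transcript described by the words aquaporin, plasma membrane intrinsic, tonoplast intrinsic or major intrinsic protein. This gave 23 of the 37849 annotated genes, of which the descriptions place 4 among plasma membrane intrinsic proteins (PIPs), 6 among tonoplast intrinsic proteins (TIPs) and 4 among nodulin 26-like intrinsic proteins (NIPs), while 9 name no subfamily. A further 14 genes described as aquaporin-like in other words lay outside this rule and are given apart from the 23. Their expression was followed in leaves of 21-day-old plants of a near-isogenic line (NIL) and of Ilpum, with and without the green rice leafhopper (GRH), in 4 conditions named NIL GRH, NIL control, Ilpum GRH and Ilpum control. NIL carries the resistance locus Grh1 of the indica donor Shingwang in the background of Ilpum, a susceptible japonica cultivar. GRH plants carried second-instar nymphs for 48 h, and control plants carried none. The values hold 1 library per condition, so there is no replicate error and no test between conditions, and every difference given here separates 2 libraries.

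Aquaporins belong to the major intrinsic protein family and let water, and in some members small uncharged solutes, cross a membrane. In plants, PIPs carry water into and out of the cell, TIPs do so at the vacuole, and NIPs carry solutes such as silicic acid, boric acid and arsenite. In leaves they set how easily water moves between xylem, mesophyll and vacuole, and their activity is known to be regulated at the transcript level and by phosphorylation and gating of the protein.

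The libraries held 1170099 reads in NIL GRH, 5037081 in NIL control, 894661 in Ilpum GRH and 2119765 in Ilpum control, and the controls were the deeper ones in both lines, 4.30 times in NIL and 2.37 times in Ilpum. Levels are given in FPKM, which is scaled to transcript length and library size, and differences as log2 of the FPKM with 1 added, which understates the change of low genes. A gene was counted as higher or lower when it was at least 2-fold apart on this scale, among the 18575 genes that averaged 1 FPKM or more across all libraries. Beside each difference stands the exact 95% interval of the ratio of reads, which covers counting error only. Per the methods of the paper, fragments were read from each end. The listed counts follow base coverage over a read length of 101, so both reads of a pair were counted. Every interval given here is thus too narrow, by an amount that was not computed. Where no read was listed, a level of up to 3 reads was considered possible, which is 2.56 CPM (reads scaled to library size) in NIL GRH, 0.596 in NIL control, 3.35 in Ilpum GRH and 1.42 in Ilpum control. This limit takes each listed read as a separate fragment, so bounds that rest on it are too strong, by an amount that was not computed. As a check of the tissue, 22 genes matched the words for Rubisco small subunit or chlorophyll a/b-binding protein, and they summed to 6616 FPKM in NIL GRH, 20970 in NIL control, 15850 in Ilpum GRH and 28731 in Ilpum control. Of the 15 that were expressed, 11 were at least 2-fold lower and 0 higher with GRH in NIL, and 6 were lower and 1 higher in Ilpum. The higher one was a CCT-domain gene that shares these words, with 7 reads. The 6 root-specific RCc2 and RCc3 genes had 0 reads in NIL GRH, NIL control and Ilpum control and 4 reads in Ilpum GRH.

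Of the 23 aquaporin genes, 12 reached a mean of 1 FPKM and are called expressed here, and 9 genes had no read in any library. The remaining genes below the limit were Os07g0448400, similar to PIP2-5, with 5 reads in Ilpum control and 0 elsewhere, and Os05g0231600, similar to an aquaglyceroporin and TIP, with 2 reads in NIL control and 0 elsewhere. The genes without reads were 2 TIPs (Os02g0658100 and Os04g0550900), the NIP3-3-like Os08g0151900 and 6 genes with no subfamily named. Among the 12 expressed genes the mean FPKM ran from 3.29 for the NIP1-3 isoform gene Os05g0205050 to 680 for the tonoplast gene Os03g0146100, and 8 of them exceeded 100 FPKM on average. The plot of levels by library shows that these 8 genes were present in all 4 libraries, whereas Os01g0232000 and Os05g0205050, lower in the range, were listed at 0 in some.

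**Figure D1:**
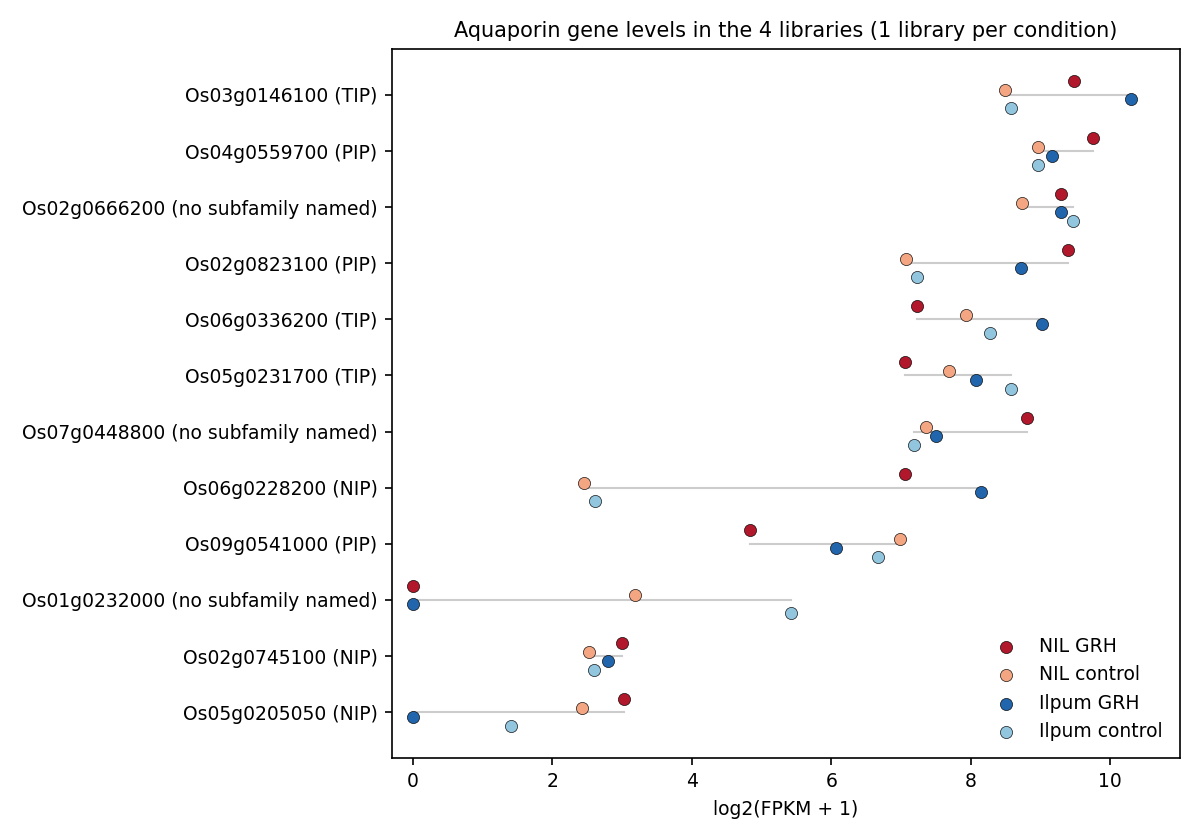
Levels of the 12 expressed aquaporin genes, those averaging 1 FPKM or more, as log2 of the FPKM with 1 added (horizontal axis), for NIL GRH, NIL control, Ilpum GRH and Ilpum control (points, 1 library each; grey lines join the lowest and the highest library). Os06g0228200 lies near 5 FPKM in both controls and at 133 FPKM in NIL GRH and 283 FPKM in Ilpum GRH, and Os01g0232000 is listed at 0 in both infested libraries.

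Together the aquaporin genes took a larger part of the library with GRH than without in both lines. Their reads made up 0.440% of the library in NIL GRH (exact 95% interval 0.428% to 0.452%) against 0.249% in NIL control (0.245% to 0.254%), and 0.477% in Ilpum GRH (0.463% to 0.492%) against 0.315% in Ilpum control (0.307% to 0.322%). The summed FPKM was 3789 in NIL GRH against 2178 in NIL control, and 4209 in Ilpum GRH against 2729 in Ilpum control. The 14 other genes were added after their values were seen. With them the reads made up 0.618% in NIL GRH against 0.320% in NIL control, and 0.558% in Ilpum GRH against 0.392% in Ilpum control. Which infested library had the larger aquaporin share thus depends on the word rule. In the same comparison the summed leaf markers were lower with GRH in both lines, and the part of this shift, and that of depth, in the aquaporin share was not tested. In whole leaves, fewer cells of a type and less RNA per cell cannot be told apart.

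The make-up of this pool differed between the infested libraries of the lines. In NIL GRH the 4 largest parts were Os04g0559700, similar to PIP1.1 (22.9% of the aquaporin FPKM), the tonoplast gene Os03g0146100 (18.9%), the PIP gene Os02g0823100 (17.8%) and Os02g0666200, described only as an aquaporin (16.6%). In Ilpum GRH, Os03g0146100 alone made up 30.0%, followed by Os02g0666200 (15.0%), Os04g0559700 (13.6%) and the delta-TIP gene Os06g0336200 (12.3%). The genes described as PIPs made up 41.4% in NIL GRH against 34.8% in NIL control, and 25.2% in Ilpum GRH against 27.6% in Ilpum control. Those described as TIPs made up 26.4% in NIL GRH against 37.2% in NIL control, but 48.7% in Ilpum GRH against 39.3% in Ilpum control. Genes with no subfamily named made up 28.4% in NIL GRH against 27.4% in NIL control, but 19.3% in Ilpum GRH against 32.7% in Ilpum control. The PIP and TIP shares thus depend on where these unnamed genes belong. These shares rest on the word rule, and those of Os03g0146100 and the TIPs also on a short transcript that holds most of its FPKM. By reads, Os03g0146100 had 548 of the 5147 aquaporin reads in NIL GRH and 758 of 4272 in Ilpum GRH. With the 14 other genes added, the TIP share was 40.6% in NIL GRH against 42.5% in NIL control, and 46.7% in Ilpum GRH against 41.8% in Ilpum control, so that most of the gap in NIL was no longer seen. The PIP share was not recomputed with these genes.

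**Figure D2:**
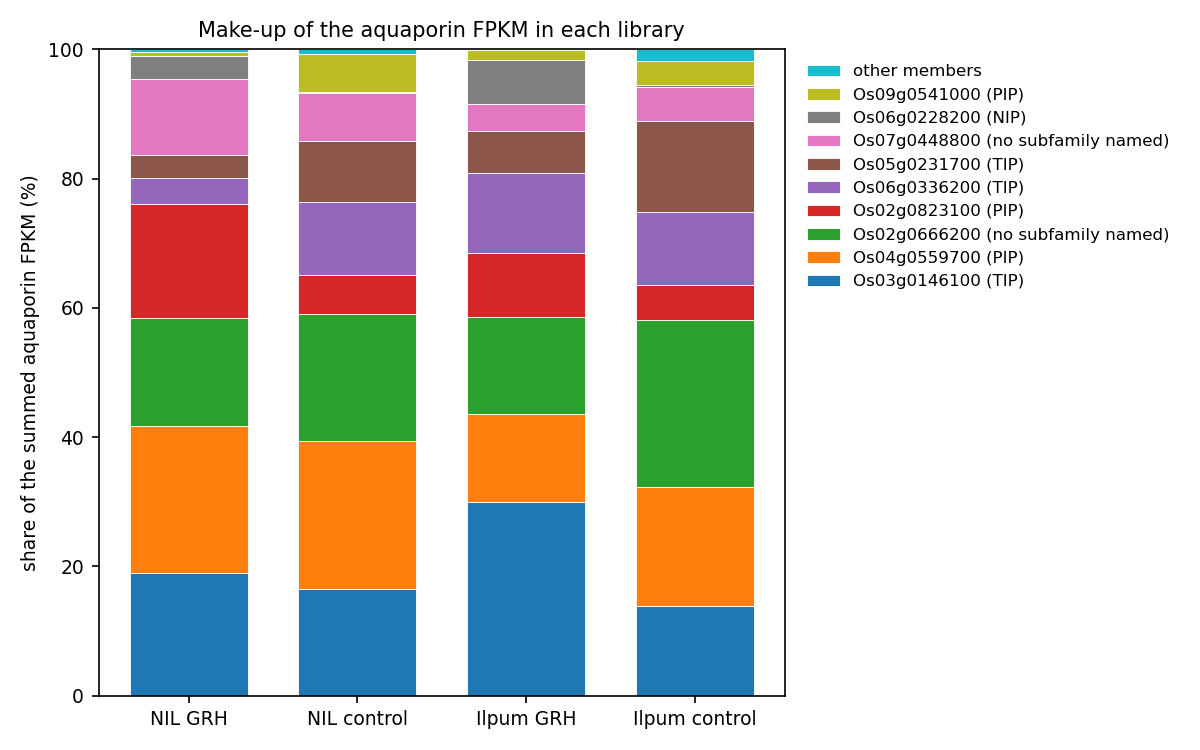
Share of the summed aquaporin FPKM taken by each gene (vertical axis, percent) in NIL GRH, NIL control, Ilpum GRH and Ilpum control (1 library each), for the 9 genes with the highest mean FPKM and all other members together. Os03g0146100 takes 18.9% in NIL GRH and 30.0% in Ilpum GRH, and Os02g0823100 takes 17.8% in NIL GRH against 6.15% in NIL control.

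GRH infestation was compared with no infestation in each line. In NIL, 3 of the 12 expressed aquaporin genes were at least 2-fold higher, beside 14.7% of all genes tested, and 2 were at least 2-fold lower, beside 20.9% of all genes. In Ilpum, 3 were at least 2-fold higher, beside 20.4% of all genes, and 2 were at least 2-fold lower, beside 28.6%. The median log2 difference of the 12 genes was 0.58 in NIL and 0.19 in Ilpum, and that of all genes tested was -0.06 in NIL and -0.10 in Ilpum. Os06g0228200 and Os02g0823100 were higher in both lines, and Os01g0232000 was lower in both. Os01g0232000 passed the limit on the mean only through its uninfested libraries, so that it had to differ. Each library enters 1 comparison with GRH and 1 between the lines, so these comparisons are not independent of each other.

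The largest difference in the upward direction among the 12 genes belonged to Os06g0228200 (chromosome 6, 6648404 to 6653002, minus strand, IRGSP-1.0), described as a NIP III aquaporin and silicon influx transporter. NIP III channels are known in rice for the import of silicic acid into cells. The gene had 133 FPKM in NIL GRH (256 reads) against 4.50 FPKM in NIL control (44 reads), and 283 FPKM in Ilpum GRH (433 reads) against 5.10 FPKM in Ilpum control (22 reads). The log2 difference was 4.60 in NIL (interval of the read ratio 4.18 to 5.14) and 5.54 in Ilpum (4.93 to 6.23), or 24.3-fold in NIL and 46.5-fold in Ilpum. Of the 18575 genes tested, only 47 in NIL and 62 in Ilpum had a larger log2 difference. The gene took 3.51% of the aquaporin FPKM in NIL GRH against 0.207% in NIL control, and 6.72% in Ilpum GRH against 0.187% in Ilpum control. It thus lay well above the other 11 genes in both lines. The intervals of the lines overlapped, and the difference between them was not tested. Os01g0232000, listed at 0 with GRH, has only bounds and was not ranked against it.

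The other gene described as a NIP III silicon influx transporter, Os02g0745100, which is also annotated for arsenite and selenite transport, stayed low. It had 6.98 FPKM in NIL GRH against 4.74 in NIL control, and 5.94 in Ilpum GRH against 5.08 in Ilpum control, from 9 to 35 reads per library. The interval of the read ratio was -0.52 to 1.54 in NIL and -0.95 to 1.68 in Ilpum, so that a level more than 2-fold higher lay within both intervals and no difference was detectable at this depth. Os05g0205050, an isoform of NIP1-3 on chromosome 5 (6543376 to 6544643), had 7.16 FPKM in NIL GRH against 4.35 in NIL control, and 0 in Ilpum GRH against 1.66 in Ilpum control. It counted as lower in Ilpum, but from 0 against 3 reads, and its intervals reached from below to above 0 in both lines. Some genes described as NOD26-like or nodulin 26-like, and the silicon efflux gene Os03g0107300, were outside the word rule. Of these, Os03g0107300 and Os08g0152000 had 0 reads in all libraries, Os01g0202800 had 6 reads in Ilpum GRH and 0 elsewhere, and Os05g0205000 had 10 reads in NIL GRH against 40 in NIL control and 0 in Ilpum GRH against 5 in Ilpum control.

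Among the genes described as PIPs, which carry water across the plasma membrane, responses ran in both directions. Os02g0823100 (chromosome 2, 35349673 to 35351221, plus strand), similar to maize PIP1-5, had 673 FPKM in NIL GRH against 134 in NIL control, and 421 in Ilpum GRH against 149 in Ilpum control. It was 4.99-fold higher with GRH in NIL (log2 interval of the read ratio 2.21 to 2.46) and 2.82-fold higher in Ilpum (1.35 to 1.73). Os04g0559700 (chromosome 4, 28046582 to 28048410, plus strand), similar to PIP1.1, had 866 FPKM in NIL GRH against 498 in NIL control, and 571 in Ilpum GRH against 500 in Ilpum control. Its log2 difference was 0.80 in NIL (0.71 to 0.90) and 0.19 in Ilpum (0.09 to 0.37), below the 2-fold limit in both.

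In contrast, Os09g0541000 (chromosome 9, 21310132 to 21311479, plus strand), similar to Aquaporin 2 and, in its other transcript, to a plasma membrane intrinsic protein, had 27.5 FPKM in NIL GRH against 126 in NIL control, and 66.0 in Ilpum GRH against 101 in Ilpum control. The log2 difference was -2.15 in NIL (-2.64 to -1.71), a 4.43-fold lower level, and -0.61 in Ilpum (-0.96 to -0.21). It was the only gene described as a PIP that was lower with GRH among the 3 expressed ones. PIP genes are known to be close in sequence, and values of single genes are uncertain where reads of near-identical stretches were split among them.

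The genes described as TIPs, which form the water channels of the vacuole, gave 3 patterns. Os03g0146100 (chromosome 3, 2562812 to 2564646, minus strand), a tonoplast water channel, had 717 FPKM in NIL GRH against 361 in NIL control, and 1261 in Ilpum GRH against 380 in Ilpum control. Its log2 difference was 0.99 in NIL (0.89 to 1.18), just under the limit of 2-fold, and 1.73 in Ilpum (1.63 to 1.95). In NIL it passed the limit with quantile-normalized FPKM (1.07) and with TPM (1.03). It shares 1328 bases with Os03g0146200 on the other strand, which had 4 reads in NIL GRH against 11 in NIL control and 0 in both Ilpum libraries.

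Os06g0336200 (chromosome 6, 13407319 to 13408715, plus strand), a delta-TIP gene, had 150 FPKM in NIL GRH against 243 in NIL control, and 520 in Ilpum GRH against 311 in Ilpum control. Its log2 difference was -0.70 in NIL (-0.89 to -0.48) and 0.74 in Ilpum (0.63 to 0.94). The level was thus lower with GRH in NIL and higher with GRH in Ilpum, with neither difference reaching 2-fold. Os05g0231700 (chromosome 5, 8000718 to 8002989, plus strand), similar to a TIP, had 133 FPKM in NIL GRH against 205 in NIL control, and 270 in Ilpum GRH against 382 in Ilpum control. It was lower with GRH in both lines without reaching 2-fold, by log2 differences of -0.62 in NIL (-0.83 to -0.40) and -0.50 in Ilpum (-0.64 to -0.28). It shares 701 bases with Os05g0231600 on the other strand, and the authors' quantification used strand.

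The remaining 3 expressed genes carried no subfamily name. Os07g0448800 (chromosome 7, 15406442 to 15409748, plus strand), described as an aquaporin, had 447 FPKM in NIL GRH against 163 in NIL control, and 181 in Ilpum GRH against 145 in Ilpum control. Its log2 difference was 1.45 in NIL (1.25 to 1.53) and 0.31 in Ilpum (0.14 to 0.64), at least 2-fold in NIL alone, and the difference between the lines was not tested. Os02g0666200 (chromosome 2, 27044341 to 27047381, plus strand) had 628 FPKM in NIL GRH against 426 in NIL control, and 630 in Ilpum GRH against 704 in Ilpum control. Both infested libraries were thus at about the same level, with log2 differences of 0.56 in NIL (0.46 to 0.68) and -0.16 in Ilpum (-0.25 to 0.01).

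Os01g0232000 (chromosome 1, 7297781 to 7298619, plus strand), a major intrinsic protein family gene, had 0 reads in NIL GRH against 32 in NIL control (8.09 FPKM), and 0 reads in Ilpum GRH against 71 in Ilpum control (41.9 FPKM). Set against the limit of 3 reads per library and with the control reads taken as exact, it was at least 2.48-fold lower in NIL and at least 9.99-fold lower in Ilpum. Both reads of a pair were counted, so these bounds are too strong, and the bound in NIL may fall below 2-fold. The interval that also holds the counting error of the controls came closer to no difference, with an upper end of -0.93 in NIL and -2.98 in Ilpum on the log2 scale. At the level of the controls, 7.43 reads would have been listed in NIL GRH and 30.0 in Ilpum GRH. Listed zeros were frequent in these libraries, since 4.09% of the genes with at least 10 reads predicted from the control were at 0 in NIL GRH and 7.99% in Ilpum GRH. With 7.43 predicted reads in NIL GRH, Os01g0232000 lies outside this set there, and the share of zeros at its level was not computed.

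**Figure D3:**
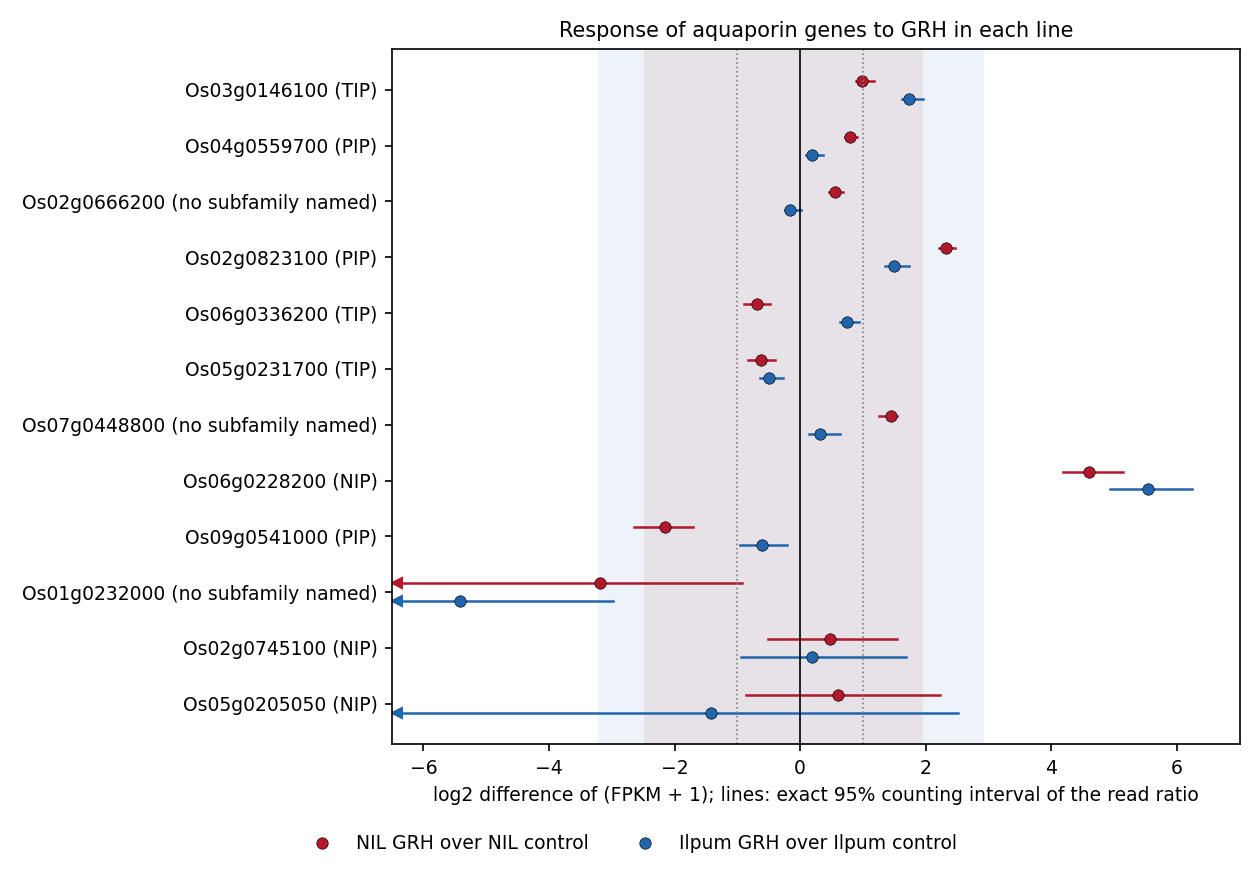
Log2 difference of the FPKM with 1 added (horizontal axis) for NIL GRH over NIL control (red, upper point of each pair) and Ilpum GRH over Ilpum control (blue, lower point) in the 12 expressed aquaporin genes. Lines are exact 95% counting intervals of the ratio of reads per library total, arrowheads mark intervals that run past the axis, dotted lines mark 2-fold, and shaded bands hold the middle of all 18575 genes from percentile 5 to percentile 95 (-2.49 to 1.95 in NIL, -3.21 to 2.93 in Ilpum); Os06g0228200 lies outside both bands at 4.60 and 5.54.

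Between the lines, 3 of the 12 genes had responses of opposite sign, beside 37.2% of all genes tested. These were Os06g0336200, Os02g0666200 and Os05g0205050, and only for Os06g0336200 did the counting intervals exclude 0 in both lines. The response in NIL minus that in Ilpum ran from -1.54 for Os09g0541000 to 2.24 for Os01g0232000 over the 12 genes. These ends lay at percentiles 16.7 and 88.8 of all genes tested, thus within the bulk of the differences between these libraries. The highest values, of Os01g0232000 and of Os05g0205050 (2.02), rest on libraries listed at 0. Os06g0336200 (-1.43) lay at percentile 17.9 and Os07g0448800 (1.14) at percentile 76.1.

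When NIL GRH was set directly against Ilpum GRH, 2 of the 12 genes were at least 2-fold higher in NIL, beside 25.0% of all genes tested, and 4 were at least 2-fold lower, beside 23.7%. The 4 lower genes were Os06g0336200 (150 FPKM in NIL GRH against 520 in Ilpum GRH, log2 difference -1.79, interval -2.05 to -1.60), Os09g0541000 (-1.23, -1.87 to -0.74), Os06g0228200 (-1.08, -1.37 to -0.92) and Os05g0231700 (-1.02, -1.31 to -0.80). Os05g0231700 no longer reached 2-fold with TPM or with read counts scaled by TMM factors. Os03g0146100, the remaining expressed TIP of the word rule, differed by -0.81 (-1.02 to -0.69). The direction was not shared by every TIP-like gene, since Os01g0975900, outside the rule, was higher in NIL GRH. The higher genes were Os07g0448800 (447 FPKM in NIL GRH against 181 in Ilpum GRH, 2.47-fold higher, log2 interval 1.06 to 1.52) and Os05g0205050. Os05g0205050 had 6 reads in NIL GRH against 0 in Ilpum GRH, and its interval included 0. It passed the limit on the mean only through its NIL libraries, which favours a higher level in NIL in both comparisons of the lines. Of the 15 expressed leaf markers, 11 were at least 2-fold lower and 0 higher in NIL GRH than in Ilpum GRH, and their part in these differences was not tested.

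When NIL control was set against Ilpum control, 1 gene was at least 2-fold higher in NIL, beside 14.1% of all genes tested, and 1 was at least 2-fold lower, beside 14.0%. The lower gene was Os01g0232000, with 8.09 FPKM in NIL control against 41.9 in Ilpum control (log2 difference -2.24, interval -3.05 to -1.78). The higher gene was Os05g0205050, with 15 reads in NIL control against 3 in Ilpum control and an interval of -0.75 to 3.50. Most of the abundant genes differed little here, with log2 differences between -0.35 and 0.31 for 7 of the 9 genes with the highest mean. Os05g0231700 was also below Ilpum here, at -0.89 (-1.02 to -0.78). Both Os05g0231700 and Os05g0205050 lie on chromosome 5, as Grh1 does, and their differences had opposite signs. Whether either gene falls in the segment from Shingwang was not tested. Os02g0666200 was lower in NIL only without GRH, at -0.72 (-0.82 to -0.64) against -0.00 (-0.19 to 0.10) with GRH. The comparisons of infested and of uninfested libraries share no library.

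**Figure D4:**
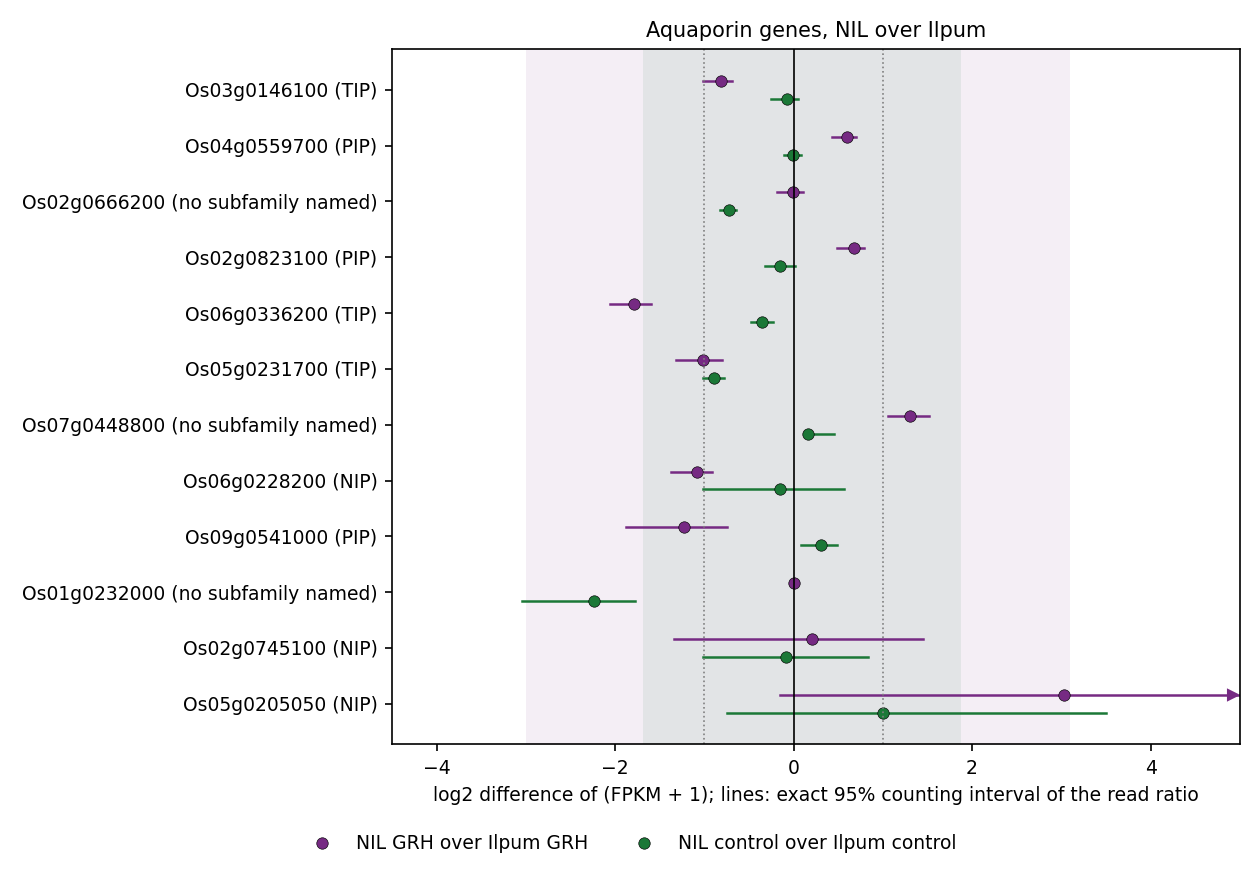
Log2 difference of the FPKM with 1 added (horizontal axis) for NIL GRH over Ilpum GRH (purple, upper point of each pair) and NIL control over Ilpum control (green, lower point) in the 12 expressed aquaporin genes. Lines are exact 95% counting intervals of the read ratio, arrowheads mark intervals past the axis, dotted lines mark 2-fold and shaded bands hold all genes tested from percentile 5 to percentile 95; the purple points of Os06g0336200 (-1.79) and Os07g0448800 (2.47-fold higher) lie apart from their green points (-0.35 and 0.16).

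Among the 23 genes, 6 have more than 1 annotated transcript. For Os06g0228200, both transcripts were higher with GRH. Os06t0228200-01 (1524 bases) had 125 FPKM in NIL GRH against 3.01 in NIL control, and 258 in Ilpum GRH against 3.56 in Ilpum control. Os06t0228200-03 (2362 bases) had 7.73 FPKM in NIL GRH against 1.49 in NIL control, and 24.9 in Ilpum GRH against 1.53 in Ilpum control. The longer transcript made up 5.81% of the FPKM of the gene in NIL GRH against 33.1% in NIL control, and 8.80% in Ilpum GRH against 30.1% in Ilpum control, where the control shares rest on 19 reads in NIL and 9 in Ilpum.

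Most of the FPKM of Os03g0146100 was assigned to Os03t0146100-05, an annotated transcript of 551 bases, with 86.1% in NIL GRH, 89.0% in NIL control, 85.6% in Ilpum GRH and 87.5% in Ilpum control. The longest one, Os03t0146100-01 with 1081 bases, had 99.7 FPKM in NIL GRH against 39.7 in NIL control, and 181 in Ilpum GRH against 47.6 in Ilpum control. Both transcripts thus differed in the same direction, and the share between them was alike in the 4 libraries. A short transcript gives more FPKM per read. The rank of this gene at the top of the family, its part of the aquaporin FPKM and the TIP share thus rest on this assignment. In the other 4 genes 1 transcript held at least 89.0% of the FPKM in every library. The minor transcript of Os06g0336200 (Os06t0336200-02) was listed at 0 in both infested libraries, against 61 reads in NIL control and 31 in Ilpum control.

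**Figure D5:**
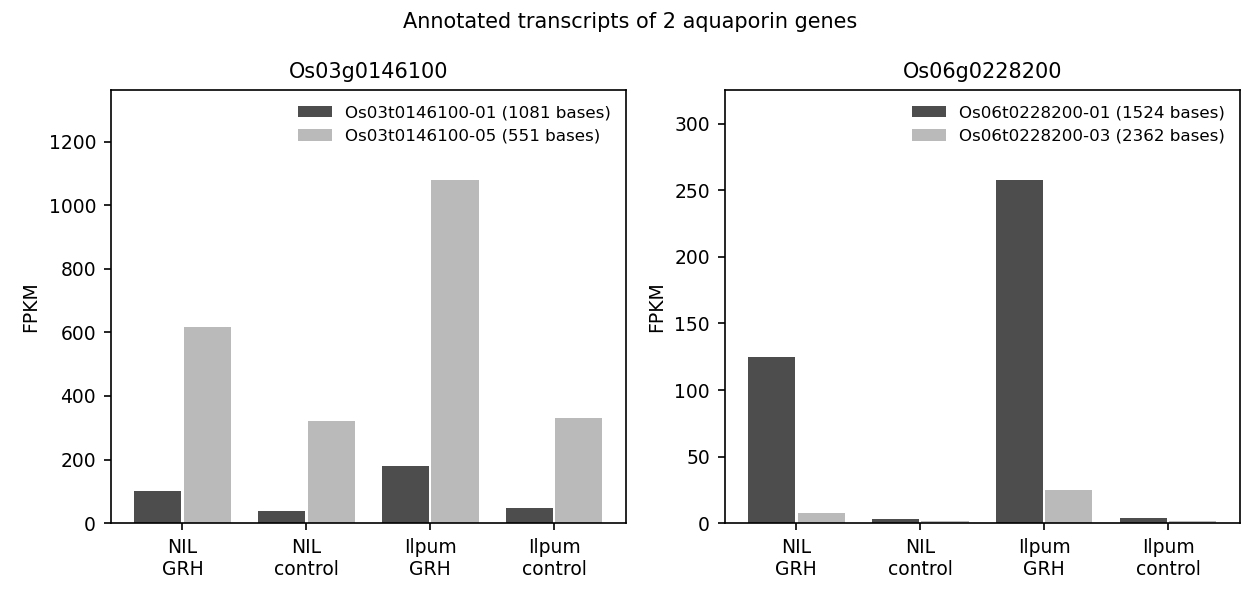
FPKM (vertical axis) of the annotated transcripts with reads of Os03g0146100 and Os06g0228200 in NIL GRH, NIL control, Ilpum GRH and Ilpum control (bars, 1 library each). The 551-base transcript of Os03g0146100 holds 85.6% to 89.0% of its gene in each library, and Os06t0228200-01 has 125 FPKM in NIL GRH and 258 FPKM in Ilpum GRH, against 3.01 in NIL control and 3.56 in Ilpum control.

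Proton pumps, which set the pH and the ion gradients on both sides of the membranes that hold these channels, were listed beside the aquaporins. Of 9 genes described as plasma membrane proton pumps, 4 were expressed, of which 0 were at least 2-fold higher and 1 was lower in NIL, and 0 were higher and 2 were lower in Ilpum, with median log2 differences of -0.27 in NIL and -1.36 in Ilpum. Both lower genes in Ilpum were listed at 0 reads in Ilpum GRH, against 110 (Os02g0313900) and 32 (Os11g0660400) in Ilpum control. In Ilpum the others, Os07g0191200 and Os01g0966000, differed by -0.51 and -0.57. Of 26 genes of vacuolar ATPases and pyrophosphatases, 24 were expressed, of which 1 was higher and 1 lower in NIL, and 1 was higher and 3 were lower in Ilpum. The median log2 difference of the vacuolar list was -0.01 in NIL and 0.01 in Ilpum, near that of all genes tested. Of all genes tested, 14.7% were higher and 20.9% lower in NIL, and 20.4% were higher and 28.6% lower in Ilpum.

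A pair of genes described as similar to PIP2 proteins under other words lay outside the rule, and they were added after their values were seen. Os07g0448100, similar to maize PIP2-6, had 22.9 FPKM in NIL GRH (34 reads) against 1.26 in NIL control (8 reads), and 41.5 FPKM in Ilpum GRH (49 reads) against 0 reads in Ilpum control. Os02g0629200, similar in 1 transcript to HvPIP2;1, had 249 FPKM in NIL GRH against 171 in NIL control, and 284 in Ilpum GRH against 226 in Ilpum control. Os07g0448100 was thus higher with GRH by 3.40 in NIL on the log2 scale, and Os02g0629200 was less than 2-fold apart in both lines. Os07g0448100 passed the limit on the mean only through its infested libraries, so that it had to differ.

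Another 9 genes outside the rule, found by the words membrane integral protein ZmTIP or ZmSIP and Nodulin26, were likewise added after values were seen, and 5 of them were expressed. Os01g0975900, similar to maize TIP1-2, had 1131 FPKM in NIL GRH (1593 reads) against 354 in NIL control (2156 reads), and 207 in Ilpum GRH (230 reads) against 319 in Ilpum control (855 reads). Its log2 difference was 1.68 in NIL (1.58 to 1.76) and -0.62 in Ilpum (-0.87 to -0.44), and NIL GRH was above Ilpum GRH by 2.44 (2.20 to 2.61). It was thus higher with GRH in NIL and lower, by less than 2-fold, in Ilpum, and took 21.5% of the FPKM of all 37 genes in NIL GRH against 12.8% in NIL control, and 4.28% in Ilpum GRH against 9.53% in Ilpum control. The paper also names this gene as an aquaporin. Its section on qPCR reports the gene as lower with GRH in Ilpum and higher in NIL.

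Os02g0232900, described as a NIP and arsenite transporter, had 20 reads in NIL GRH (11.7 FPKM) against 0 in NIL control, and 68 reads in Ilpum GRH (52.1 FPKM) against 0 in Ilpum control. With the limit of 3 reads and the listed reads taken as exact, it was at least 28.7-fold higher in NIL and at least 53.7-fold higher in Ilpum. Both bounds are too strong, since both reads of a pair were counted. Os02g0232900 passed the limit on the mean only through its infested libraries. The TIP3-1-like Os10g0492600 had 0 reads in NIL GRH against 47 in NIL control, and 0 in Ilpum GRH against 17 in Ilpum control. This gene passed the limit on the mean only through its uninfested libraries, so that it had to differ. The small basic intrinsic protein-like Os01g0182200 had 32.9 FPKM in NIL GRH against 33.4 in NIL control, and 26.2 in Ilpum GRH against 58.7 in Ilpum control, and Os03g0320000 had 8 to 20 reads per library. The other 4 genes had at most 17 reads in any library.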

How the data were processed

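The authors aligned reads with HISAT and, per the file headers, estimated FPKM and TPM with StringTie 1.3.4d in stranded mode on the RAP-DB representative transcripts of IRGSP-1.0. The read counts they deposited were whole numbers. For genes with 1 transcript, each equalled the deposited coverage times length over a read length of 101, rounded up, within 1 read in 100% of cases. A listed count can thus exceed the reads behind it by up to 1. Trimmomatic is named in the submitters' processing notes, and the methods of the paper name an assembly that these files do not use. Gene values are sums over the 44643 transcripts. The paper describes duplicates, but 1 set of values per condition was used here, so no test was run. The authors give no column of their own comparisons in the tables used.

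Values were read with Python 3.11.15 and pandas 2.3.3, intervals were computed with scipy 1.17.1 and TMM factors with edgeR 4.0.16. Named were members with a mean of at least 5 FPKM, or a 2-fold difference in any comparison at a mean of at least 1 FPKM. The steps were tested on simulated data with reads drawn independently of each other. Counted pairs of reads were not simulated, so this test cannot show how far the intervals hold for these libraries. Aquaporin genes and related lists were chosen with earlier results of these data known, and the PIP-like, TIP-like, SIP-like and Nodulin26-like genes under other words were added after seeing the data. Alternatives were quantile normalization, a pseudocount of 0.1 FPKM, no filter or a mean of at least 5 FPKM, TPM, TMM-scaled CPM with 0.5 added, and a 4-fold threshold. Gene names follow the descriptions in the files. No sequence was used here.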

Additional observations from a re-analysis of the deposited data

Results flagged for a closer look

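The delta-TIP gene Os06g0336200 is listed because its level was lower with GRH in NIL and higher with GRH in Ilpum, with counting intervals that excluded 0 in both lines. These intervals are too narrow, since both reads of a pair were counted. The response in NIL minus that in Ilpum was -1.43 on the log2 scale, at percentile 17.9 of all genes tested, and this difference was not tested, since each condition has 1 library. Neither response reached 2-fold, responses of opposite sign were found in 37.2% of all genes tested, and Os09g0541000 differed more between the lines (-1.54).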

How the results depend on the processing

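No paired analysis was possible because each condition has 1 library. Of 192 values of the 12 named genes recomputed with other scalings and pseudocounts, 6 crossed the 2-fold limit and 8 changed sign, the latter all from differences between the lines that had not reached 2-fold. For the counts at other thresholds, filters and scalings below, the share over all genes was not computed. They show only how the calls move with the setting. At a 4-fold threshold 1 gene was higher and 1 lower in Ilpum with GRH. At this threshold 1 was higher and 0 were lower in NIL GRH than in Ilpum GRH, and 0 were higher in NIL control than in Ilpum control. With a mean of at least 5 FPKM, which leaves out Os05g0205050, 1 gene was lower in Ilpum with GRH, 1 was higher in NIL GRH than in Ilpum GRH and 0 were higher in NIL control than in Ilpum control. Quantile normalization also left 1 gene lower in Ilpum, without Os05g0205050. TMM-scaled counts left 0 genes higher in NIL control than in Ilpum control and moved the median of all genes in NIL by -0.14, with a median of 0.46 for the aquaporin genes. Without a filter, which adds the 11 low members, the median was 0 in NIL and 0 in Ilpum, and 2 genes were lower in NIL control than in Ilpum control. PIP-like and NOD26-like aquaporins described by other words were also added, chosen after seeing the data, which gave 16 expressed genes. Of these, 5 were higher in Ilpum with GRH, beside 20.4% of all genes tested. In NIL control 3 were higher than in Ilpum control, beside 14.1%. With all 14 aquaporins under other words added, also chosen after seeing the data, 21 genes were expressed in place of 12. Of these, 6 were higher and 5 lower in Ilpum with GRH, beside 20.4% and 28.6% of all genes tested. In NIL 6 were higher with GRH, beside 14.7%. In NIL GRH 4 were higher than in Ilpum GRH, beside 25.0%. In NIL control 3 were higher than in Ilpum control, beside 14.1%. Responses of opposite sign were found for 5, beside 37.2%. The counts with added genes hold some that passed the limit only through the libraries where they were higher, so that they had to differ. Among these were Os07g0448100, Os02g0232900, Os01g0202800 and Os10g0492600. The depth of the infested libraries limits genes below about 10 reads.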
